A study of Mus musculus with 12 samples.

Results

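The Ly49 receptors, encoded by the Klra genes, were followed gene by gene in CD8+ T cells sorted from mouse tumors. Members were the genes whose symbol is Klra followed by a number and that had at least 10 counts in at least 3 libraries. Of 52636 genes in the count table, 11 had such a symbol and 10 met the count threshold, namely Klra1 to Klra10. Just inside the threshold was Klra10, with 10, 10 and 11 counts in 3 libraries and 0 to 8 in the others. Just outside was Klra17, with 10 and 21 counts in 2 libraries. The measured counts that chose the members carry no test, and a gene near the threshold can have reached it through 1 condition only. Of the 6 libraries with at least 10 counts of Klra4, 5 were GFP+.

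Ly49 receptors are C-type-lectin-like proteins that mouse natural killer (NK) cells and some CD8+ T cells carry on their surface, where most of them bind MHC class I molecules. Inhibitory members have a tyrosine-based inhibitory motif (ITIM) near the start of the protein, through which phosphatases such as SHP-1 (Ptpn6) are recruited. Activating members lack that motif and pair with the adaptor DAP12 (Tyrobp). In mice, CD8+ T cells with Ly49 receptors and the transcription factor Helios (Ikzf2) are known as a population with regulatory properties.

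All mice were A2AR eGFP reporter females on the C57BL/6 background, aged 6 to 16 weeks, in which a transgene places GFP under regulatory sequences of Adora2a, the gene of the adenosine receptor A2AR. Each mouse received 500000 AT3ova breast tumor cells under the skin and was either non-treated (NT) or given anti-PD-L1, an antibody against the checkpoint ligand PD-L1, on days 14 and 18. On day 21 the tumor-infiltrating CD8+ T cells were sorted into GFP+ and GFP- fractions, and RNA was sequenced from the transcript 3′ ends (QuantSeq). The 4 conditions (NT GFP-, NT GFP+, anti-PD-L1 GFP- and anti-PD-L1 GFP+, the last pair also called treated) had 3 libraries each, every library pooled from 3 mice, so that p-values describe the spread between pools.

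Library totals ran from 11292699 to 19023900 counts. Libraries KT13 (NT GFP+) and KT21 (anti-PD-L1 GFP+) stood apart, with median Spearman correlations to the other libraries of 0.941 and 0.936, against 0.967 to 0.977 for the other 10, and results are therefore given over all 12 libraries and over the 10 without them. Adora2a, the gene behind the sort, was at 60.2 to 111 CPM (counts scaled to a library of 1000000) in the GFP+ libraries and at 19.7 to 34.6 CPM in the GFP- libraries. The 7 T cell genes checked (Cd8a, Cd8b1, Cd3d, Cd3e, Cd3g, Trac and Trbc2) summed to between 3867 and 6016 CPM in every library, but both CD8 coreceptor genes were lower in NT GFP+ than in NT GFP- cells, as given beside the markers of other cells.

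All 10 members lie on the minus strand of chromosome 6 (mm10), in the NK gene complex, and no other annotated gene overlaps them. Klra5 (ENSMUSG00000030173) is at chr6:129898996-129917650, Klra6 (ENSMUSG00000061769) at chr6:130013033-130026954 and Klra7 (ENSMUSG00000067599) at chr6:130218605-130233322. Klra3 (ENSMUSG00000067591) is at chr6:130323289-130337574 and Klra1 (ENSMUSG00000079853) at chr6:130363917-130386874. The activating genes Klra4 (ENSMUSG00000079852) and Klra8 (ENSMUSG00000089727) are at chr6:130043731-130067271 and chr6:130115226-130129898. Klra9 (ENSMUSG00000033024) at chr6:130178675-130193112 and Klra10 (ENSMUSG00000072718) at chr6:130269194-130281928 lie within the same cluster, while Klra2 (ENSMUSG00000030187) stands apart at chr6:131219223-131247362.

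The first 36 coding bases (GENCODE transcripts on GRCm38, the same assembly as mm10) show a difference between the activating and the inhibitory members. Capitals mark codon 8, which encodes the ITIM tyrosine (TAC or TAT) in the inhibitory members and phenylalanine (TTC) in Klra8 and Klra4.
Klra6: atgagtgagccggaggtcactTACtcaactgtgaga
Klra7: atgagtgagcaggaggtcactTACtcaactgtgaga
Klra3: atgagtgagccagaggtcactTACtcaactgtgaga
Klra1: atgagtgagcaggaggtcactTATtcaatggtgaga
Klra5: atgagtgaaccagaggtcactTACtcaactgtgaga
Klra8: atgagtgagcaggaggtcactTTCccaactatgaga
Klra4: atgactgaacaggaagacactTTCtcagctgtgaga
Each stretch lies in a single exon. Counting from 1 at the first base of the start codon and with Klra6 as the reference, Klra4 and Klra8 shared the substitution A23T, which no other of the 11 numbered Klra genes had. Klra7 differed from Klra6 in these bases by C11A alone and Klra3 by G12A alone. Over the whole coding sequence, identity ran from 64.3%, for Klra2 with Klra4 and with Klra8, to 96.9% between Klra9 and Klra10. Klra3 and Klra9 were 95.9% identical, Klra5 and Klra6 91.9%, and Klra6 and Klra7 82.1%.

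Such similarity bears on which reads can be assigned to a gene, because the libraries hold 75-base reads from the 3′ ends. For each gene, every 75-base window of the last 400 transcript bases was searched for exact matches in the transcripts of all other genes. Matches with up to 2 mismatches were searched only among genes of the chromosome region around the Klra genes. In that region no window of Klra1, Klra2, Klra4 or Klra5 matched another gene with up to 2 mismatches, and 4.0% of the Klra6 windows did. The share was 79.4% for Klra7, where the other gene was the pseudogene Klra13-ps, 98.8% for Klra3, 100% for Klra9 and Klra10, and 65.6% for Klra8. Exact matches were fewer, at 22.1% of windows for Klra7, 9.8% for Klra3, 19.3% for Klra9, 30.7% for Klra10 and 0.0% for Klra8. The annotated Klra10 transcript has 16 bases after the stop codon, against 201 to 766 for the other members. Its windows are thus mostly coding sequence and unlike those of the others. Counts of Klra3, Klra7, Klra8, Klra9 and Klra10 are therefore uncertain as to which gene the reads came from, in the case of Klra7 as against Klra13-ps. For the activating gene Klra8, the gene with most matches was the inhibitory Klra9, with 173 of 326 windows. Those of Klra1, Klra2, Klra4, Klra5 and Klra6 rest on 3′ ends that are nearly or wholly their own within that region. Near matches elsewhere were not searched.

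**Figure D1:**
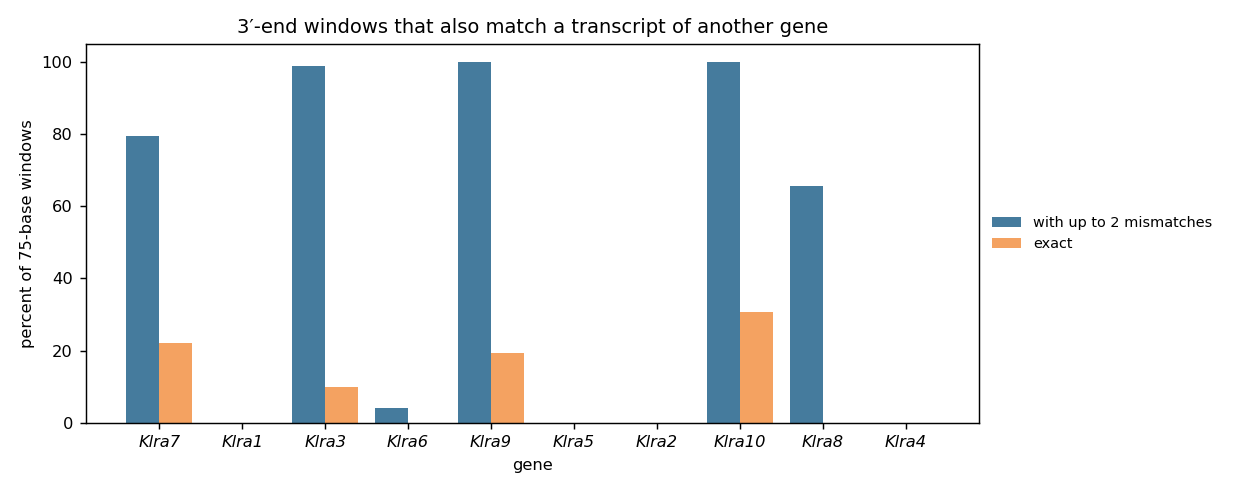
Bars give, for each of the 10 Ly49 members, the percentage of 75-base windows in the last 400 transcript bases that match a transcript of another gene, exactly (orange) or with up to 2 mismatches (blue). The matches with mismatches were searched only among genes of the chromosome region around the Klra genes. Klra1, Klra5, Klra2 and Klra4 have no such window and Klra6 has 4.0%, while Klra8 is at 65.6%, Klra7 at 79.4% and Klra3, Klra9 and Klra10 at 98.8% to 100%.

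In these CD8+ T cells 4 inhibitory Ly49 genes were higher in the GFP+ than in the GFP- fraction. Averaged over both treatments, Klra6, Klra7, Klra3 and Klra1 were each 2.24- to 3.35-fold higher in GFP+ cells and passed edgeR's test. Of all genes tested, 0.31% passed it, but the members were chosen with earlier results of these data known. Neither activating member passed it over 12 libraries, though the fitted fold was 2.82 for Klra8 and 3.44 for Klra4, both with few reads. DESeq2 called Klra8. Klra5 and Klra2 were not higher in GFP+ cells on this average. After anti-PD-L1 the fitted levels of 8 of the 9 members tested were lower than in non-treated tumors in each fraction, but no member passed the test for treatment. Of all genes tested, 49.2% were higher with anti-PD-L1 in GFP+ and 49.1% in GFP- cells, and the SE of Klra2 and Klra4 was above 1.2 on the log2 scale in each fraction.

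Klra6, which encodes the inhibitory receptor Ly49F, had the largest difference among the members called. It was at 7.38, 8.98 and 10.04 CPM in NT GFP- libraries and at 16.7, 30.1 and 32.7 CPM in NT GFP+ libraries. After anti-PD-L1 it was at 6.004, 5.42 and 3.32 CPM in GFP- and at 21.6, 14.2 and 19.2 CPM in GFP+ libraries. Every GFP+ library thus lay above every GFP- library of either treatment, and the lowest GFP+ value of each treatment belonged to KT13 and KT21. The share of all genes with such a separation across treatments was not counted. The log2 fold change averaged over treatments was 1.74 ± 0.21 (SE; edgeR's quasi-likelihood test, Benjamini-Hochberg adjusted p = 0.00348) over 12 libraries and 1.94 ± 0.17 over 10 (edgeR, adjusted p = 6.89e-07).

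Klra7 encodes Ly49G, an inhibitory receptor, and its reads made up 33.4% to 46.9% of all Ly49 reads in a library. NT GFP- libraries had 34.9, 53.4 and 49.4 CPM, and NT GFP+ libraries had 99.96, 108 and 108 CPM. With anti-PD-L1 the values were 34.9, 37.5 and 23.1 CPM in GFP- and 96.7, 74.9 and 89.5 CPM in GFP+ cells. The 6 GFP+ values again did not overlap the 6 GFP- values, with the same limit on the share over all genes. Its averaged log2 fold change was 1.32 ± 0.15 over 12 libraries (edgeR, adjusted p = 0.00217) and 1.39 ± 0.13 over 10 (edgeR, adjusted p = 7.43e-07).

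Klra1 encodes Ly49A, the founding inhibitory member, and Klra3 encodes Ly49C, which binds H-2Kb of C57BL/6 mice. Klra1 was at 27.2, 32.1 and 22.4 CPM in NT GFP-, 63.2, 46.8 and 39.8 CPM in NT GFP+, 21.2, 19.9 and 14.1 CPM in treated GFP- and 56.04, 57.9 and 37.6 CPM in treated GFP+ libraries. For Klra3 the values were 11.7, 16.4 and 13.2 CPM, 36.7, 25.7 and 29.2 CPM, 11.1, 8.55 and 6.04 CPM, and 22.2, 24.5 and 20.4 CPM in the same order. For both genes all GFP+ values lay above all GFP- values, a separation whose share over all genes was not counted. Here KT13 and, with anti-PD-L1, KT21 were the highest GFP+ libraries. The averaged log2 fold change was 1.16 ± 0.17 for Klra1 (edgeR, adjusted p = 0.00832) and 1.26 ± 0.17 for Klra3 (edgeR, adjusted p = 0.00511) over 12 libraries. Over 10 libraries it was 1.01 ± 0.15 and 1.15 ± 0.17 (edgeR, adjusted p = 4.08e-04 for each).

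**Figure D2:**
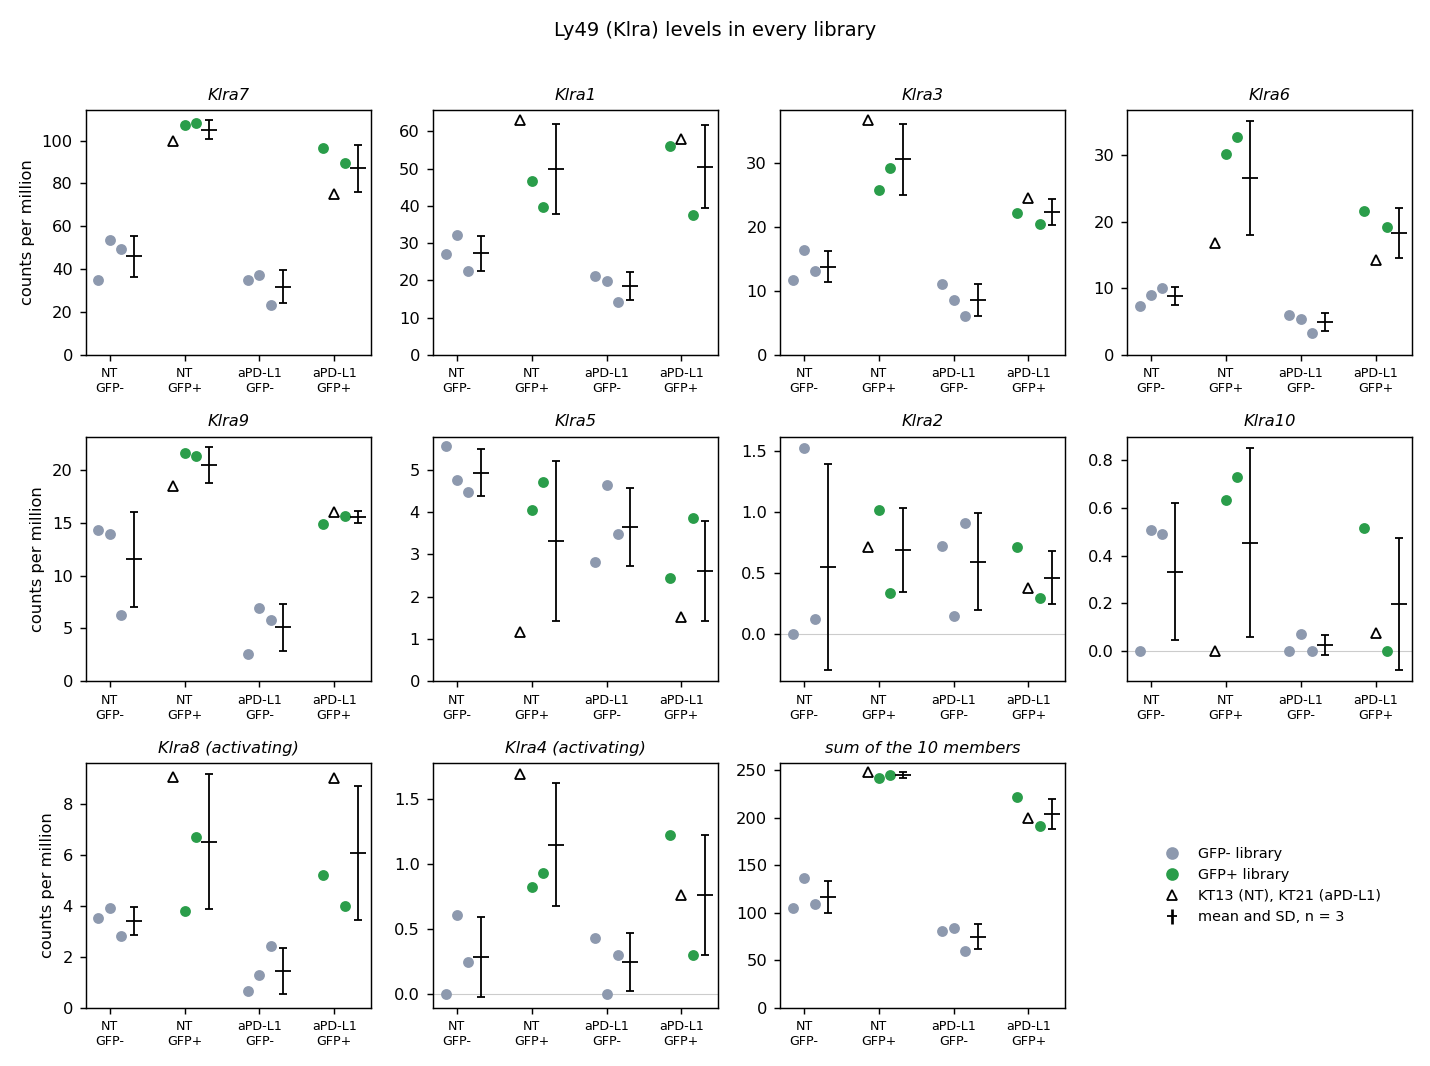
Each panel shows 1 Ly49 member, and the last panel their sum, in CPM (linear axes that differ between panels) for the 4 conditions, with 1 symbol per library, KT13 and KT21 as open triangles, and the mean and SD of 3 libraries beside them. GFP+ libraries of Klra7, Klra1, Klra3 and Klra6 all lie above the GFP- libraries, those of Klra5 do not, and the sum is at 191 to 248 CPM in GFP+ and 59.5 to 136 CPM in GFP- libraries.

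Klra9 encodes Ly49I, another inhibitory receptor for H-2Kb. It was at 14.4, 13.95 and 6.31 CPM in NT GFP- and 18.5, 21.6 and 21.3 CPM in NT GFP+ libraries, and at 2.604, 6.91 and 5.81 CPM in GFP- and 14.9, 16.001 and 15.7 CPM in GFP+ libraries with anti-PD-L1. Within each treatment the fractions did not overlap. The averaged log2 fold change of 1.21 ± 0.24 just missed the threshold over 12 libraries (edgeR, adjusted p = 0.0538) and passed it over 10 with 1.24 ± 0.23 (edgeR, adjusted p = 0.00593). DESeq2 called it over 12 libraries as well (adjusted p = 5.64e-04), and adjusted p over all alternatives ran from 1.02e-05 to 0.141. Since nearly all of its 3′-end windows also match Klra3, these 2 genes are not independent observations.

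Klra5 encodes Ly49E, known from fetal NK cells and some T cells, and of the family its coding sequence is the closest to that of Klra6. It was at 5.56, 4.77 and 4.47 CPM in NT GFP- and 1.16, 4.05 and 4.71 CPM in NT GFP+ libraries, and at 2.82, 4.63 and 3.47 CPM and 2.45, 1.52 and 3.85 CPM in GFP- and GFP+ libraries with anti-PD-L1. The fractions overlapped in both treatments, and KT13 and KT21 were the lowest libraries of their groups. The averaged log2 fold change was -0.52 ± 0.35 over 12 libraries (edgeR, adjusted p = 0.728) and -0.19 ± 0.30 over 10 (edgeR, adjusted p = 0.898). Set against Klra6 within the same library, a ratio chosen after the values were seen and not tested, there were 1.33, 1.88 and 2.25 Klra6 reads per Klra5 read in NT GFP- and 14.5, 7.44 and 6.94 in NT GFP+ libraries. With anti-PD-L1 the ratio was 2.13, 1.17 and 0.957 in GFP- and 8.82, 9.35 and 4.98 in GFP+ libraries, so that the fractions did not overlap in this ratio.

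Both activating members had few reads. Klra8, which encodes Ly49H, the receptor for the cytomegalovirus protein m157, was at 3.52, 3.91 and 2.82 CPM in NT GFP- and 9.08, 3.799 and 6.71 CPM in NT GFP+ libraries. With anti-PD-L1 it was at 0.651, 1.28 and 2.42 CPM in GFP- and 5.22, 9.02 and 3.999 CPM in GFP+ libraries. The fractions overlapped in non-treated tumors and were apart after anti-PD-L1, and the highest GFP+ library was KT13 in one and KT21 in the other treatment. Its averaged log2 fold change was 1.496 ± 0.35 over 12 libraries (edgeR, adjusted p = 0.116) and 1.14 ± 0.36 over 10 (edgeR, adjusted p = 0.184), whereas DESeq2 called it over 12 libraries (adjusted p = 0.00496). Over all alternatives its adjusted p ran from 0.00496 to 0.297.

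Klra4 encodes Ly49D, an activating receptor of NK cells, and had 0, 12 and 4 counts in NT GFP-, 19, 13 and 14 in NT GFP+, 6, 0 and 4 in treated GFP- and 19, 10 and 4 in treated GFP+ libraries. The NT fractions did not overlap and those after anti-PD-L1 did. With so few counts the averaged log2 fold change was 1.78 ± 0.90 (edgeR, adjusted p = 0.632), an error that leaves the size of the difference undetermined at this depth. Together the activating members made up 1.35% to 4.91% of the Ly49 reads of a library, with means of 3.16% ± 0.31 (SD, n = 3) in NT GFP-, 3.13% ± 1.22 in NT GFP+, 2.48% ± 1.81 in treated GFP- and 3.36% ± 1.39 in treated GFP+ cells. The 4 ranges overlapped. Klra8 windows match those of the inhibitory Klra9 with up to 2 mismatches, so this split into activating and inhibitory reads is uncertain.

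Klra2 and Klra10 complete the inhibitory members. Klra2 encodes Ly49B, which is known from myeloid cells, and ranged from 0 to 30 counts, with no order among the conditions and an averaged log2 fold change of -0.02 ± 0.89 (edgeR, adjusted p = 0.998). Klra10 had 0 to 11 counts and did not pass the low-count filter, so that it was not tested. Of its 49 counts in all, 21 were in NT GFP+, 18 in NT GFP-, 9 in treated GFP+ and 1 in treated GFP- libraries.

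**Figure D3:**
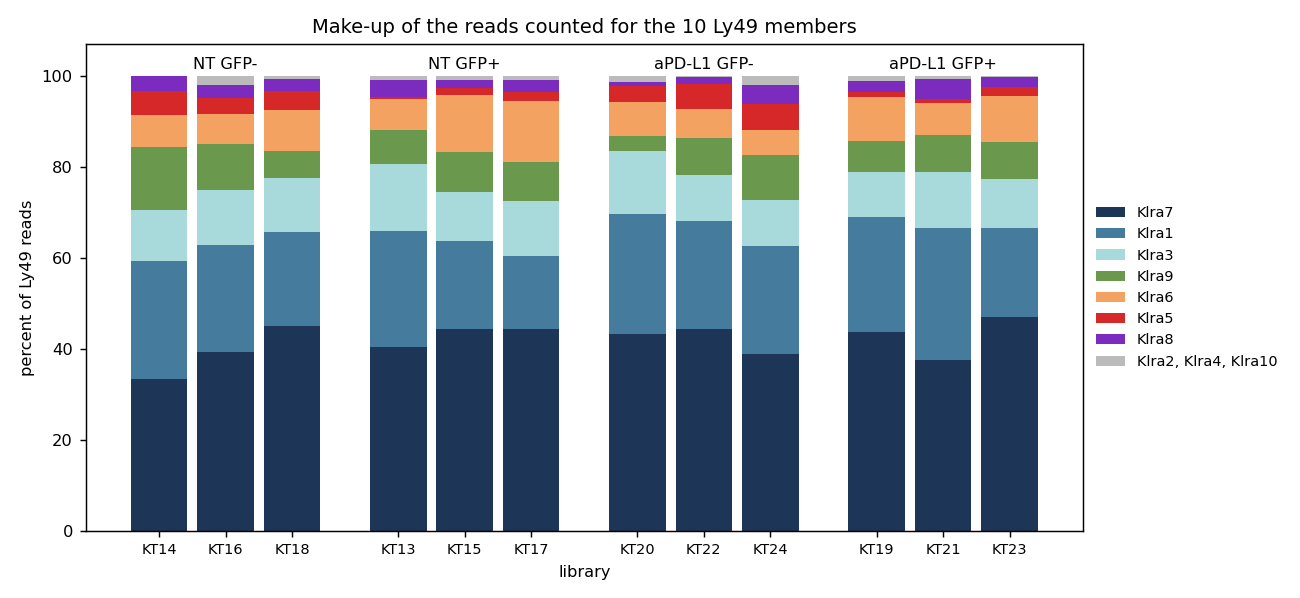
Stacked bars give the share of each member in the Ly49 reads of each library, in percent, grouped by condition. Klra7 has 33.4% to 46.9% throughout, and Klra5 (red) has 3.50% to 5.84% in GFP- and 0.467% to 2.02% in GFP+ libraries.

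Summed over the 10 members, Ly49 reads came to 117 ± 16.98 CPM in NT GFP-, 245 ± 2.83 CPM in NT GFP+, 74.8 ± 13.4 CPM in GFP- after anti-PD-L1 and 204 ± 15.9 CPM in GFP+ after anti-PD-L1 (means with SD, n = 3). The GFP+ mean was 2.097 times the GFP- mean in non-treated and 2.73 times after anti-PD-L1, and 2.09 and 2.76 times without KT13 and KT21. Neither the fractions nor the treatments overlapped in this sum, although single members differed between libraries of the same group. KT13 had the lowest Klra5, Klra6, Klra7 and Klra9 and the highest Klra1, Klra3, Klra4 and Klra8 of the NT GFP+ libraries, yet the 3 sums of that group were 248, 242 and 245 CPM. In a bulk library, fewer cells of a type and less RNA per cell cannot be told apart.

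The comparison of GFP+ with GFP- cells asks how CD8+ T cells with more of the A2AR reporter differ from those with less. Adora2a reads were present in every GFP- library too. Averaged over treatments, 4 of the 9 members tested passed edgeR's adjusted p under 0.05 over 12 libraries, all higher in GFP+ cells, against 0.31% of the 14173 genes tested. Over the 10 libraries 5 of 9 passed, with Klra9 added, against 1.08% of 14747 genes, and DESeq2 called 6 of 9 over 12 libraries, with Klra8 and Klra9 added, against 1.11%. The members were chosen with earlier results of these data known, so the shares here and below describe the family and do not test it as a set. The 9 members had a median log2 fold change of 1.26 and 7 of them were positive, beside a median of 0.00 and 50.6% of all genes tested. Among these 7 is Klra4, which met the count threshold mainly through GFP+ libraries. Klra6, Klra7, Klra3 and Klra1 were called in each of the 12 fits that left out 1 library, with the highest adjusted p at 0.0201, 0.0131, 0.0292 and 0.0403 (edgeR). Over all alternatives, DESeq2 included, adjusted p ran from 9.38e-20 to 0.0201 for Klra6, 3.99e-19 to 0.0131 for Klra7, 1.46e-08 to 0.0292 for Klra3 and 1.46e-09 to 0.0403 for Klra1.

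In non-treated tumors alone, edgeR called 0 of 9 members over 12 libraries, against 0.00706% of all genes. At an unadjusted p under 0.05 it had 5 of 9, all higher in GFP+ cells, against 6.05%, and DESeq2 called Klra3, Klra6 and Klra7, against 0.374%. Without KT13 and KT21, edgeR called Klra6 (log2 fold change 1.84 ± 0.24, adjusted p = 4.93e-04) and Klra7 (1.23 ± 0.18, adjusted p = 0.00150), against 0.339% of all genes. Leaving out KT13 alone gave the call of Klra6, leaving out KT21 alone gave that of Klra7, and the other 10 such fits called no member. In 6 of 9 members (Klra1, Klra3, Klra4, Klra6, Klra7 and Klra9) every GFP+ library was above every GFP- library, as in 6.19% of all genes tested. Klra4 had few counts and met the count threshold mainly through GFP+ libraries, so its place in this count follows partly from that choice.

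After anti-PD-L1, edgeR called Klra7 alone over 12 libraries, with a log2 fold change of 1.45 ± 0.21 (adjusted p = 0.0298), against 0.0282% of all genes. Without KT13 and KT21 it called Klra7 (1.55 ± 0.18, adjusted p = 1.67e-04), Klra6 (2.05 ± 0.25, adjusted p = 1.70e-04), Klra1 (1.35 ± 0.21, adjusted p = 0.00245) and Klra3 (1.31 ± 0.24, adjusted p = 0.0117), against 0.17%. DESeq2 called these 4 with Klra8 and Klra9 over 12 libraries, against 0.332%. The call of Klra7 over 12 libraries was lost when any of KT15, KT17, KT18, KT19, KT20, KT22, KT23 and KT24 was left out, with adjusted p between 0.0167 and 0.264 over the 12 such fits, while its log2 fold change stayed between 1.28 and 1.60. In 6 of 9 members (Klra1, Klra3, Klra6, Klra7, Klra8 and Klra9) every GFP+ library was above every GFP- library, as in 5.31% of all genes.

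**Figure D4:**
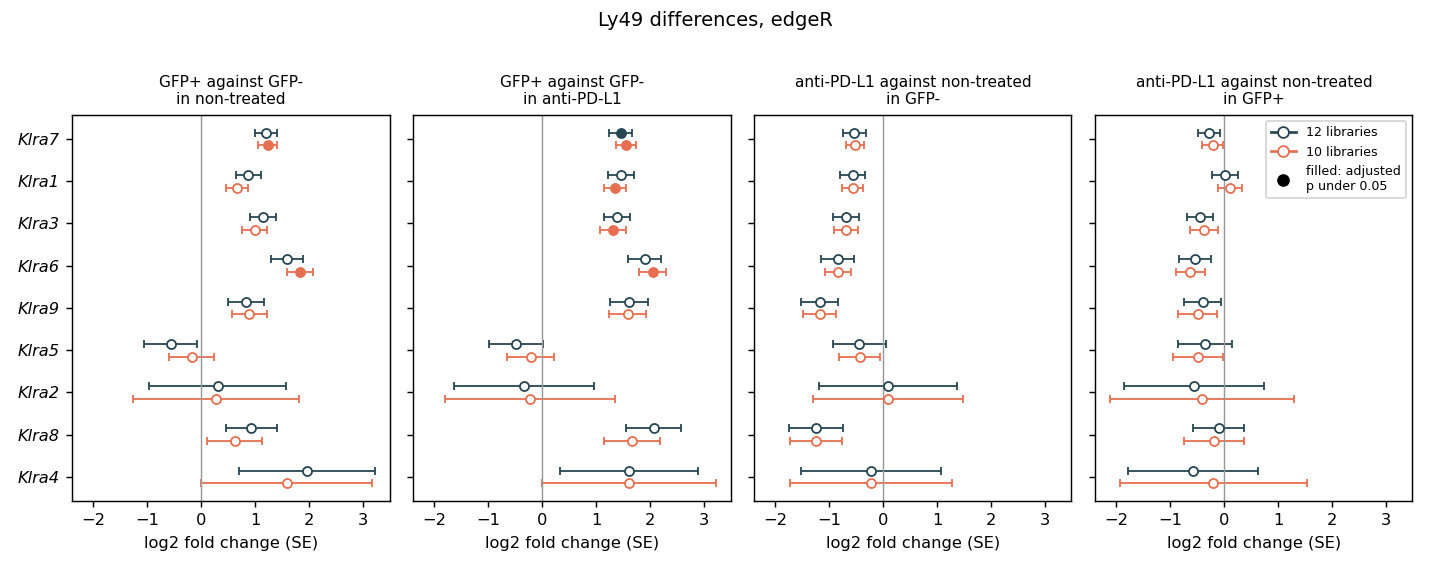
Points give edgeR's log2 fold change with its SE for the 9 members tested, over 12 libraries (dark) and over the 10 without KT13 and KT21 (orange), and are filled where the adjusted p is under 0.05. Of the GFP comparisons, Klra7 is filled over 12 libraries after anti-PD-L1, and over 10 libraries Klra6 and Klra7 are filled in both treatments and Klra1 and Klra3 after anti-PD-L1, while the treatment comparisons have no filled point.

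The treatment comparison asks how blockade of PD-L1 changed each fraction. In GFP- cells all of Klra1, Klra3, Klra6, Klra7, Klra8 and Klra9 had lower levels with anti-PD-L1, with log2 fold changes from -0.53 ± 0.20 for Klra7 to -1.24 ± 0.50 for Klra8. None of the 9 members passed edgeR's adjusted p under 0.05, against 0.0% of all genes, and DESeq2 called 0 of 9, against 0.233%. These 6 were at an unadjusted p under 0.05 in edgeR, against 3.44% of all genes. Without KT13 and KT21 edgeR again called 0 of 9, against 0.373%. Klra1, Klra3, Klra6 and Klra8 were lower in every anti-PD-L1 library than in every NT library, which held for 6.26% of all genes in that direction. The anti-PD-L1 GFP- libraries that stand low here are the same that enter the GFP comparison after anti-PD-L1.

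In GFP+ cells none of the 9 members passed edgeR's test, against 0.0141% of all genes over 12 libraries and 0.563% over 10. At an unadjusted p under 0.05 edgeR had 0 of 9, against 6.74%, and DESeq2 called 0 of 9, against 0.656%. Klra6 had a log2 fold change of -0.54 ± 0.29, Klra3 of -0.45 ± 0.24 and Klra7 of -0.27 ± 0.20, while Klra1 stood at 0.02 ± 0.23 (edgeR, adjusted p of 0.804, 0.795, 0.8998 and 0.9997). Klra3, Klra7 and Klra9 were lower in every anti-PD-L1 library than in every NT library, as were 5.67% of all genes. Ordered by mean level, Klra3, Klra6, Klra7 and Klra9 ran from NT GFP+ over anti-PD-L1 GFP+ and NT GFP- to anti-PD-L1 GFP-. For Klra6 the 2 GFP+ conditions overlapped, and for Klra7 and Klra9 the 2 GFP- conditions did, while no neighbouring conditions overlapped for Klra3. For Klra1 and Klra8 the 2 GFP+ conditions overlapped as well.

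An interaction term tested the change of the GFP difference with treatment. edgeR called 0 of 9 members, against 0.0% of all genes over 12 and 0.0% over 10 libraries, had 0 of 9 at an unadjusted p under 0.05, against 2.08%, and DESeq2 called 0 of 9, against 0.0%. The estimates were 1.14 ± 0.69 for Klra8, 0.78 ± 0.48 for Klra9, 0.58 ± 0.33 for Klra1, 0.30 ± 0.41 for Klra6 and 0.25 ± 0.29 for Klra7 on the log2 scale. Errors of this size do not allow a change in the GFP difference of about 1 on the log2 scale to be told from 0 for Klra8 and Klra9.

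Among 9 genes of activating signalling, Tyrobp, the adaptor of Ly49D and Ly49H, was the one called. It was at 17.9, 21.3 and 19.5 CPM in NT GFP-, 24.9, 24.1 and 21.9 CPM in NT GFP+, 9.77, 7.49 and 7.55 CPM in treated GFP- and 22.2, 19.6 and 20.4 CPM in treated GFP+ libraries. The anti-PD-L1 GFP- libraries were low and the other 3 conditions close together. After anti-PD-L1 the log2 fold change between fractions was 1.33 ± 0.19 over 12 libraries (edgeR, adjusted p = 0.0298) and 1.37 ± 0.21 over 10 (edgeR, adjusted p = 0.00245). Within GFP- cells the treatment difference was -1.24 ± 0.19 over 12 (edgeR, adjusted p = 0.0709) and -1.24 ± 0.19 over 10 libraries (edgeR, adjusted p = 7.54e-04). Tyrobp is also expressed by myeloid cells, whose 10 marker genes summed to 126 to 194 CPM in NT GFP-, 180 to 237 CPM in NT GFP+, 69.5 to 110 CPM in treated GFP- and 75.2 to 143 CPM in treated GFP+ libraries, and their part in these differences was not tested. Hcst, which encodes the second adaptor DAP10, had an averaged log2 fold change of 0.07 ± 0.14 (edgeR, adjusted p = 0.920) and Ptpn6 of -0.12 ± 0.13 (edgeR, adjusted p = 0.848). H2-K1, the gene of the Ly49C and Ly49I ligand H-2Kb, stood at -0.28 ± 0.11 (edgeR, adjusted p = 0.509).

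Of 9 genes known from Ly49+ CD8+ T cells, Ikzf2 alone passed the averaged GFP test. Ikzf2 was at 72.8, 81.5 and 73.5 CPM in NT GFP- and 172, 126 and 154 CPM in NT GFP+ libraries, and at 65.5, 65.7 and 50.05 CPM and 117, 131 and 106 CPM in GFP- and GFP+ libraries with anti-PD-L1. All 6 GFP+ libraries were above all 6 GFP- libraries, a separation across treatments whose share over all genes was not counted. The averaged log2 fold change was 0.98 ± 0.12 over 12 (edgeR, adjusted p = 0.00348) and 0.88 ± 0.10 over 10 libraries (edgeR, adjusted p = 1.88e-05). None of the other 8 passed, and the median log2 fold change of the 9 was -0.26 over 12 and -0.04 over 10 libraries. Il2rb stood at 0.12 ± 0.09, Tox at 0.26 ± 0.11 and Eomes at 0.11 ± 0.13 over 12 libraries (edgeR, adjusted p = 0.755, 0.549 and 0.860). Klrc1 (NKG2A) stood at -0.44 ± 0.15, Klrc2 (NKG2C) at -0.36 ± 0.14, Klrk1 (NKG2D) at -0.33 ± 0.12, Cd44 at -0.27 ± 0.11 and Klrd1 (CD94) at -0.26 ± 0.29, none of them called (edgeR, adjusted p = 0.407, 0.524, 0.458, 0.525 and 0.847). Over 10 libraries Klrd1 was at 0.08 ± 0.08 and the other 4 kept their sign without passing. The 9 genes summed to 4341 to 4800 CPM in NT GFP- and 3167 to 4185 CPM in NT GFP+ libraries, and to 5123 to 5674 CPM and 4590 to 5653 CPM after anti-PD-L1. The sum was thus lower in NT GFP+ than in NT GFP- libraries, where the Ly49 sum was higher, and the fractions overlapped after anti-PD-L1. KT13 was the library at 3167 CPM. Klrc1, Klrc2 and Il2rb weigh most in this sum, with NT GFP- means of 1270, 999 and 962 CPM.

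**Figure D5:**
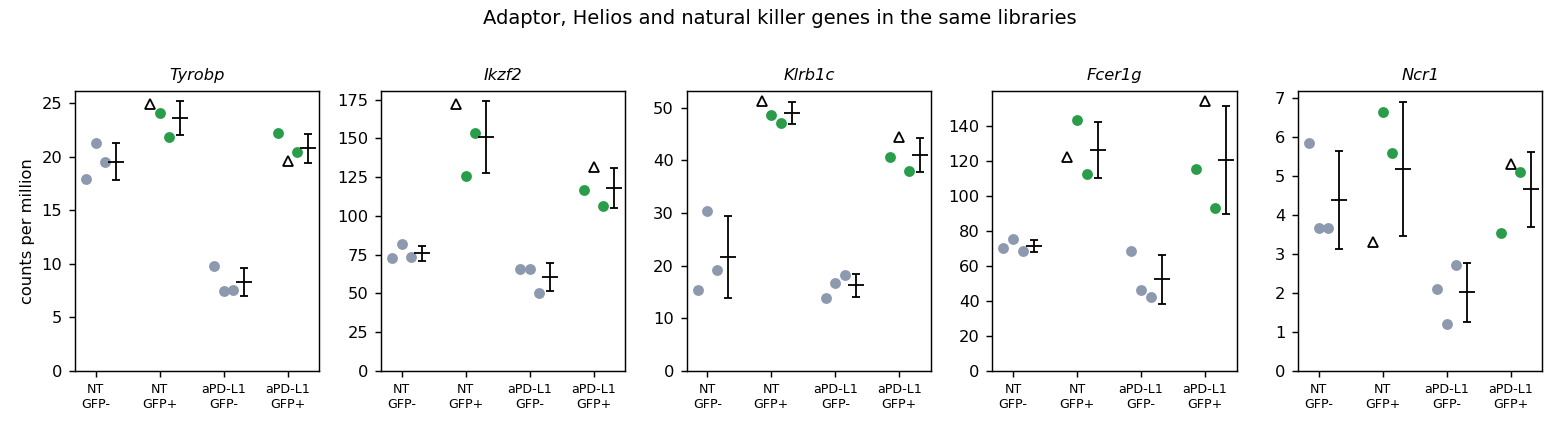
Levels in CPM (linear axes that differ between panels) of Tyrobp, Ikzf2, Klrb1c, Fcer1g and Ncr1 in the 4 conditions, with 1 symbol per library (grey GFP-, green GFP+, open triangles KT13 and KT21) and the mean and SD of 3 libraries. Tyrobp is low in anti-PD-L1 GFP- libraries alone, whereas Ikzf2 is higher in each GFP+ library than in each GFP- library.

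NK cells carry the same receptors, and their markers were measured beside the Ly49 genes. Of 8 NK marker genes, 7 were tested and 2 passed the averaged GFP test, Klrb1c (NK1.1, 1.26 ± 0.16, adjusted p = 0.00406) and Fcer1g (the signalling chain of Fc receptors, 1.02 ± 0.15, adjusted p = 0.0102), both higher in GFP+ cells (edgeR, log2 fold change and SE). Over 10 libraries they stood at 1.21 ± 0.15 and 0.92 ± 0.12 (edgeR, adjusted p = 7.16e-05 and 1.28e-04). Klrb1c was at 15.4, 30.3 and 19.2 CPM in NT GFP-, 51.3, 48.7 and 47.02 CPM in NT GFP+, 13.8, 16.8 and 18.1 CPM in treated GFP- and 40.7, 44.5 and 37.99 CPM in treated GFP+ libraries. Ncr1, which encodes the NK receptor NKp46, was between 1.21 and 6.65 CPM, and its fractions overlapped in non-treated tumors. After anti-PD-L1 they were apart, at 2.098, 1.21 and 2.72 CPM in GFP- and 3.54, 5.31 and 5.11 CPM in GFP+ libraries. The log2 fold change there was 1.21 ± 0.42 (edgeR, adjusted p = 0.993). Between treatments it was -1.13 ± 0.42 in GFP- and -0.16 ± 0.41 in GFP+ cells, neither called by edgeR. Averaged over treatments, the log2 fold change of Ncr1 between fractions was 0.72 ± 0.29 (edgeR, adjusted p = 0.528), and Khdc1a had 0 counts in 11 of 12 libraries. Itga2 stood at 0.89 ± 0.27, Klrb1f at 0.68 ± 0.72, Eomes at 0.11 ± 0.13 and Klre1 at -0.23 ± 0.28, none of them called (edgeR, adjusted p = 0.328, 0.839, 0.860 and 0.863). The 8 markers summed to 219 to 288 CPM in NT GFP- and 295 to 364 CPM in NT GFP+ libraries, and to 249 to 310 CPM and 296 to 393 CPM after anti-PD-L1. Klre1 weighs on this sum, with 42.0 CPM in KT21 and 189 CPM in KT19. Their part in the Ly49 differences was not tested.

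Of 6 markers of γδ and NKT cells 4 were tested, and none passed the averaged GFP test over 12 libraries. Tcrg-C4, a constant region of the γ chain, was at 39.1, 45.5 and 34.9 CPM in NT GFP-, 39.4, 67.8 and 65.2 CPM in NT GFP+, 39.2, 31.3 and 31.6 CPM in treated GFP- and 54.8, 52.02 and 41.2 CPM in treated GFP+ libraries. Its averaged log2 fold change was 0.53 ± 0.15 over 12 libraries (edgeR, adjusted p = 0.262), and over 10 it was called higher in GFP+ cells with 0.62 ± 0.12 (edgeR, adjusted p = 0.00642). Trdc, the constant region of the δ chain, was at 2.95, 3.501 and 3.25 CPM in NT GFP- and 8.01, 10.13 and 7.37 CPM in NT GFP+ libraries, which did not overlap (log2 fold change 1.39 ± 0.43; edgeR, adjusted p = 0.596), and the fractions overlapped after anti-PD-L1. Tcrg-C1 and Tcrg-C2 were at 37.8 to 93.2 CPM and 68.1 to 249.5 CPM over all libraries, with averaged log2 fold changes of -0.12 ± 0.21 and -0.33 ± 0.24 (edgeR, adjusted p = 0.914 and 0.755). Trdv4 had 0 counts in all 12 libraries and Zbtb16 was below 1 CPM in each. The 6 markers summed to 255 ± 51.8 CPM in NT GFP-, 258 ± 78.01 CPM in NT GFP+, 303 ± 64.9 CPM in treated GFP- and 256.5 ± 78.3 CPM in treated GFP+ libraries (means with SD, n = 3), with ranges that overlapped between fractions of each treatment, and their part in the Ly49 differences was not tested.

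The genes of the CD8 coreceptor chains had lower levels in GFP+ than in GFP- cells of non-treated tumors. Cd8b1 was at 668, 615 and 645 CPM in NT GFP- and 442, 416 and 378 CPM in NT GFP+ libraries, and Cd8a at 1188, 1166 and 1089 CPM and at 831, 860.4 and 799 CPM, so that neither gene overlapped between the NT fractions, while both did after anti-PD-L1. Averaged over treatments neither passed the test over 12 libraries (Cd8b1 -0.47 ± 0.11, Cd8a -0.27 ± 0.09; edgeR, adjusted p = 0.124 and 0.3497), and both were called lower in GFP+ cells over 10 (-0.54 ± 0.09 and -0.30 ± 0.07; edgeR, adjusted p = 0.00209 and 0.0333). Both were also called over 10 libraries in non-treated tumors (-0.69 ± 0.13 and -0.47 ± 0.10; edgeR, adjusted p = 0.0159 and 0.03798), and neither after anti-PD-L1. The other 5 T cell genes were not called in any GFP comparison over 12 or 10 libraries. Whether the lower Cd8a and Cd8b1 and the higher Ly49 levels belong to the same cells was not tested.

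The 5 genes outside the family whose log2 level over the 12 libraries was most like the Ly49 sum were Ikzf2 (Pearson r = 0.968), Klhdc2 (0.940), Klrb1c (0.940), Cxxc5 (0.929) and Fcer1g (0.927). These libraries share the GFP and treatment groups, so the values describe the groups as much as the single libraries. After the mean of each condition was subtracted, the 5 most like were Slc7a7 (r = 0.956), Atic (0.930), Sbno1 (0.929), Ado (0.908) and D1Ertd622e (0.907), while Ikzf2 was at 0.658, Klrb1c at 0.348 and Adora2a at 0.312. These are descriptions without a test, and Slc7a7 averaged 0.803 CPM. Without KT13 and KT21, Ikzf2 was at 0.981 by level and at 0.848 by deviation over 10 libraries.

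The sequence before the transcript start was searched in the 11 numbered Klra genes for the core of TCF-1, a factor known from Ly49A, as TCAAAG, and for the Runx core TGTGGT, on both strands of the 250 bases upstream (RefSeq starts, GRCm38.p6). The TCF-1 core was found for Klra6 and Klra7 and the Runx core for Klra1. Of 32851 promoters of that length, 13.8% hold the TCF-1 core and 14.0% the Runx core, and the motifs do not overlap. The upstream bases of Klra6 (chr6:130026955-130027204, minus strand) and of the distal start of Klra7 (chr6:130233323-130233572, minus strand), the members with the smallest adjusted p, follow with the core in capitals, where it reads on the opposite strand. A match is a description and not a binding site.
Klra6: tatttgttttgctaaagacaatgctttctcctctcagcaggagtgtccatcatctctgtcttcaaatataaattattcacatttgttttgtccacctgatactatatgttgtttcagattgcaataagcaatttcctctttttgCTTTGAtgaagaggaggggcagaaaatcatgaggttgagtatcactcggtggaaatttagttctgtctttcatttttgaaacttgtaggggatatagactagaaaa
Klra7: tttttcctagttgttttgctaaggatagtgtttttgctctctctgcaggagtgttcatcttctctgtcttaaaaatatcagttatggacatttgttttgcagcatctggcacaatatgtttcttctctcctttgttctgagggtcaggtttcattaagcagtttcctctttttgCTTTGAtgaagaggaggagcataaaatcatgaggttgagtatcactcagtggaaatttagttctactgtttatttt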

How the data were processed

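Sorted CD8+ T cell libraries were sequenced as 75-base single-end 3′ reads. Per the labels and the methods, the authors trimmed with Cutadapt, used HISAT2 on mm10 and featureCounts for reads per gene. The deposited values are raw counts per Ensembl gene for all 12 libraries, with no column left unassigned. Strand and multi-mapping settings are not given in the sources used here. A read counted for 1 paralog may belong to another, and 3′ counts were not divided by length.

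Symbols and positions came from GENCODE vM21 (GRCm38), which matched 52489 of 52636 identifiers. Genes were filtered with filterByExpr and fitted over the 4 conditions with TMM factors and the quasi-likelihood test in edgeR 4.0.16 (R 4.3.3). Adjusted p is Benjamini-Hochberg over all genes tested, with a threshold of 0.05. CPM used TMM-effective library sizes. Correlations used log2(CPM + 0.5). DESeq2 1.42.0, RLE factors, other count filters, fits of the compared groups alone and fits without libraries were alternatives. The steps were tested on simulated counts that had the same spread for every gene and no library standing apart, unlike these data. Replicates of a condition differed by more than sampling noise, with a chi-square per degree of freedom of 12.6 to 112. The genes named were all members by the rule, the genes of lists on signalling, ligands and cell types, and the 5 genes most like the Ly49 sum by each measure. The members and lists were chosen with earlier results of these data known. Replicates cannot be matched across conditions from the labels.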

Additional observations from a re-analysis of the deposited data

How the results depend on the processing

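No paired analysis was possible because the labels share no replicate numbers between conditions. The number of Ly49 members called (edgeR, adjusted p under 0.05) in the GFP comparison within non-treated tumors was 0 over 12 libraries. It was 2 without KT13 and KT21, 3 with DESeq2, 3 with DESeq2 without those libraries (an alternative chosen after seeing the data), 4 with no filter beyond 1 count, and 0 to 1 when 1 library was left out. After anti-PD-L1 the number was 1. It was 4 without KT13 and KT21, 6 with DESeq2, 5 with DESeq2 without them, 6 with no filter, 0 when only the groups compared were fitted, and 0 to 3 when 1 library was left out. The cause of these differences was not tested. Averaged over treatments it was 4, with 4 in each fit without 1 library, and in the other alternatives run it stayed within 1.5 times that number. For both treatment comparisons and the interaction it was 0 under every alternative run. No log2 fold change of a member that passed a threshold changed sign. With RLE factors, and without KT13 and KT21, the summed level of each condition moved by less than its SD. Of the 5 genes most like the Ly49 sum, 3 remained without KT13 and KT21 and 5 with a pseudocount of 5 by log2 level, and 2 and 4 by deviation from the condition mean. Depth limits Klra2, Klra4 and Klra10, with at most 30 counts in a library.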

Other observations

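Klra pseudogenes were counted in the same libraries but are not members. Klra13-ps (ENSMUSG00000030178, chr6:130290878-130306428, minus strand), whose 3′ end matches Klra7 in 80.1% of windows with up to 2 mismatches, had 89 to 381 counts per library. It was at 11.7, 10.6 and 12.4 CPM in NT GFP-, 9.44, 24.1 and 14.7 CPM in NT GFP+, 10.1, 11.2 and 6.72 CPM in anti-PD-L1 GFP- and 15.9, 12.3 and 18.0 CPM in anti-PD-L1 GFP+ libraries. The fractions overlapped in non-treated tumors, where KT13 was the lowest library, and were apart after anti-PD-L1. Its averaged log2 fold change between GFP+ and GFP- cells was 0.60 ± 0.22 over 12 libraries (edgeR, adjusted p = 0.490) and 0.80 ± 0.18 over 10 (edgeR, adjusted p = 0.0260). Klra11-ps had 0 to 23 counts and Klra14-ps 1 count in all.

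Klra17, which encodes Ly49Q, known from myeloid cells and plasmacytoid dendritic cells, had 0, 10 and 0 counts in NT GFP-, 0, 1 and 6 in NT GFP+, 4, 21 and 7 in anti-PD-L1 GFP- and 0, 4 and 0 in anti-PD-L1 GFP+ libraries. Its highest values lay in a condition where most Ly49 members were lowest, and it was not tested. The annotated genes Gm44248 and Gm17631 overlap it on the opposite strand, and whether reads were counted by strand is not given in the sources used here.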
